A study of Mus musculus with 18 samples.

Results

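A set of 10 genes of bone morphogenetic protein (BMP) signalling was followed in mouse embryonic stem cells after DNA damage. It holds the ligand genes Bmp4 and Bmp7, the receptor genes Bmpr1a and Bmpr2, the target genes Id1, Id2, Id3 and Id4, and the inhibitory SMAD genes Smad6 and Smad7. All 10 were measured, out of 19935 genes in all, each by the 1 probe set whose annotation names that gene alone. The arrays came from 2 cell sources. R1E is a mouse embryonic stem cell line, and its cells were mock treated, kept for 8 hours in 0.5 µM adriamycin, also called doxorubicin, which traps topoisomerase II on broken DNA, or irradiated with 25 J/m² of ultraviolet light (UV) and taken at 8 hours. Each of these 3 groups had 4 arrays. The other source was p53-/- embryonic stem cells of a 129X1 x 129S1 background, either untreated or kept in the same 0.5 µM adriamycin for 8 hours, each on 3 arrays. All groups were grown in serum with leukemia inhibitory factor. The labels give no strain for R1E, no parental line or clone number for the p53-/- cells and no statement on separate cultures. The p-values therefore reflect array-to-array spread, possibly technical.

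BMP ligands bind pairs of type I and type II serine/threonine kinase receptors, which phosphorylate SMAD1, SMAD5 and SMAD9. These join SMAD4, enter the nucleus and switch on target genes, the Id genes among them. Id proteins lack a DNA-binding region and hold E proteins and other helix-loop-helix factors inactive. In mouse embryonic stem cells BMP4 from serum or the cells themselves, acting through Id genes, is known to help leukemia inhibitory factor block neural differentiation. SMAD6 and SMAD7 are made in response to the pathway and inhibit it, which closes a feedback loop.

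Values are deposited log2 intensities, and a difference of 1 is a 2-fold change. The R1E and p53-/- arrays were normalized separately by the authors, so levels were compared only within a cell source. Array medians over genes lay between 5.90 and 6.05 in R1E and between 5.58 and 5.71 in p53-/- cells. The p53-/- arrays were less precise, where the standard error (SE) of a gene's change had a median of 0.14, against 0.0634 in R1E. All 10 embryonic stem cell markers examined, among them Pou5f1, Nanog and Sox2, lay above the array median in every group. Markers of other cell types above the array median were counted too, in untreated p53-/- cells against R1E mock cells. They were 8 against 5 of 10 fibroblast, 7 against 4 of 7 primitive endoderm and 4 against 2 of 6 trophectoderm markers. For mesoderm they were 2 against 0 of 4, and for neural ectoderm 3 against 2 of 4. All 5 lists had more in p53-/- cells, in sets normalized separately, and whether these counts reflect other cells was not tested. The deleted gene itself was not analysed here, so the genotype is as the submitters describe it.

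The RefSeq promoter table used here held windows for 7 members, and those of the ligand Bmp4 and the known BMP targets Id2, Id3, Id4 and Smad6 are printed to show the letters before genes that went different ways. The windows of Bmpr1a and Bmpr2 are described after them, and the table used here had no entry for Bmp7, Id1 and Smad7. Each is the 250 bases before the gene's start, 5′ to 3′ on the gene's strand, from RefSeq (GRCm38.p6). Capitals mark GGCGCC and GGAGCC (or its reverse complement GGCTCC), GC-rich letters that BMP-activated SMADs are known to bind.
Bmp4 (chr14:46390670-46390919, minus strand): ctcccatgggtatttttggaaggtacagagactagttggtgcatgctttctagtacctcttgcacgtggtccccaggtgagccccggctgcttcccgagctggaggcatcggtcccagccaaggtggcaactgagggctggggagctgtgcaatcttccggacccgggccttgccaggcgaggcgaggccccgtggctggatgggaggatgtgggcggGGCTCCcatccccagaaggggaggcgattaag
Id2 (chr12:25096093-25096342, minus strand): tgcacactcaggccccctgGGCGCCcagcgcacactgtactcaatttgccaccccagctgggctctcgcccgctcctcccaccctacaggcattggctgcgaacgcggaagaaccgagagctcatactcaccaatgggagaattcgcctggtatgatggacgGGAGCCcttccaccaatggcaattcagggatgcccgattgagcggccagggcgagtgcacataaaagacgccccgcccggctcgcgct
Id3 (chr4:136143572-136143821, plus strand): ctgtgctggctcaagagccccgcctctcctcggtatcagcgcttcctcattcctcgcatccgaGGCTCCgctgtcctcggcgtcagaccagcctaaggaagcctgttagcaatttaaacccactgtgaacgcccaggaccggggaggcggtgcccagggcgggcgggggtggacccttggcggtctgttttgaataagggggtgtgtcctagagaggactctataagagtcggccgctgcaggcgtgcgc
Id4 (chr13:48260866-48261115, plus strand): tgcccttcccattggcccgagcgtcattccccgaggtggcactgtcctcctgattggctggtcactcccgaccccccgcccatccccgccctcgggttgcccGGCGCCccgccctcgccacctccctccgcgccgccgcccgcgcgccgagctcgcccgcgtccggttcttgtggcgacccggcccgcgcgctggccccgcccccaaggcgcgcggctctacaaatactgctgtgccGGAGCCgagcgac
Smad6 (chr9:64022060-64022309, minus strand): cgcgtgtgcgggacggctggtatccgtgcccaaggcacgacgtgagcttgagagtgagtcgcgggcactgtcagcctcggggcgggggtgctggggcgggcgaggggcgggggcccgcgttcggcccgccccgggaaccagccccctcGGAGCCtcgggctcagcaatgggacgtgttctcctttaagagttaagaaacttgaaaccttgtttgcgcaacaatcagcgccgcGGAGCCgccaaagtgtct

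GGAGCC was found on either strand in each of the 5 windows, and in 26.0% of the 32851 promoters of the table. GGCGCC, which reads the same on both strands, was found in the windows of Id2, Id4, Bmpr1a and Bmpr2, and in 9.59% of all promoters. The printed windows were GC-rich, from 62.8% G or C in Id2 and Id3 to 75.6% in Id4, where the median of all promoters was 52.4%. In Id2 the matches began 231 bases (GGCGCC) and 88 bases (GGAGCC) before the start, and in Smad6 both GGAGCC matches began 102 and 18 bases before it. The 10-letter consensus of p53 (one of the pair a full site holds) was found in none of the 5 windows and in 7.13% of all promoters. GTCT, the short SMAD-binding letters, was found in the windows of Bmp4, Id2, Id3 and Smad6 but in 82.9% of all promoters, and CACGTG, an E-box that helix-loop-helix factors can bind, in that of Bmp4 and in 6.02% of all promoters. Of the receptor genes, Bmpr1a and Bmpr2 each held 1 GGCGCC, neither held GTCT or CACGTG, and Bmpr2 held 1 p53 decamer, 64 bases before its start. A match is a run of letters, not a binding site, and the absence of one says only that the letters are not in this window.

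The first question was what adriamycin did to the pathway in R1E cells. The 2 ligand genes went opposite ways: Bmp4 fell 4.81-fold and Bmp7 rose 4.26-fold. The Id genes split as well, with Id2 up 2.76-fold, Id3 and Id4 down 1.53-fold and 1.57-fold, and no change detected in Id1. Both inhibitory SMAD genes fell, Smad7 by 1.53-fold and Smad6 by 1.40-fold. In all, 3 members rose and 5 fell (limma, Benjamini-Hochberg adjusted p below 0.05), where 22.1% of all genes rose and 25.6% fell. At this threshold 47.7% of all genes were called, so the size of the changes tells more than the count. At least 2-fold changes were rarer, 1.46% of genes for falls and 3.91% for rises, and Bmp4, Bmp7 and Id2 were among them.

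Bmp4, the BMP ligand best known in embryonic stem cells, read 8.07, 8.01, 8.11 and 7.95 on the mock arrays and 5.70, 5.78, 5.87 and 5.73 on the adriamycin arrays. Every adriamycin array lay more than 2 log2 units below every mock array, while arrays of a group differed by less than 0.2. The log2 change was -2.26 ± 0.06 SE (95% interval -2.38 to -2.15, adjusted p = 1.28e-14), rank 9 from the lowest of 19935 genes. Bmp7, a ligand that can pair with BMP4 and is best known in kidney and bone, read 6.75, 6.56, 6.45 and 6.67 in mock and 8.82, 8.73, 8.65 and 8.59 after adriamycin. These groups did not overlap either, with a log2 change of 2.09 ± 0.07 (1.95 to 2.23, adjusted p = 2.6e-13), rank 125 from the highest. Groups of 45.6% of all genes did not overlap in this comparison.

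**Figure D1:**
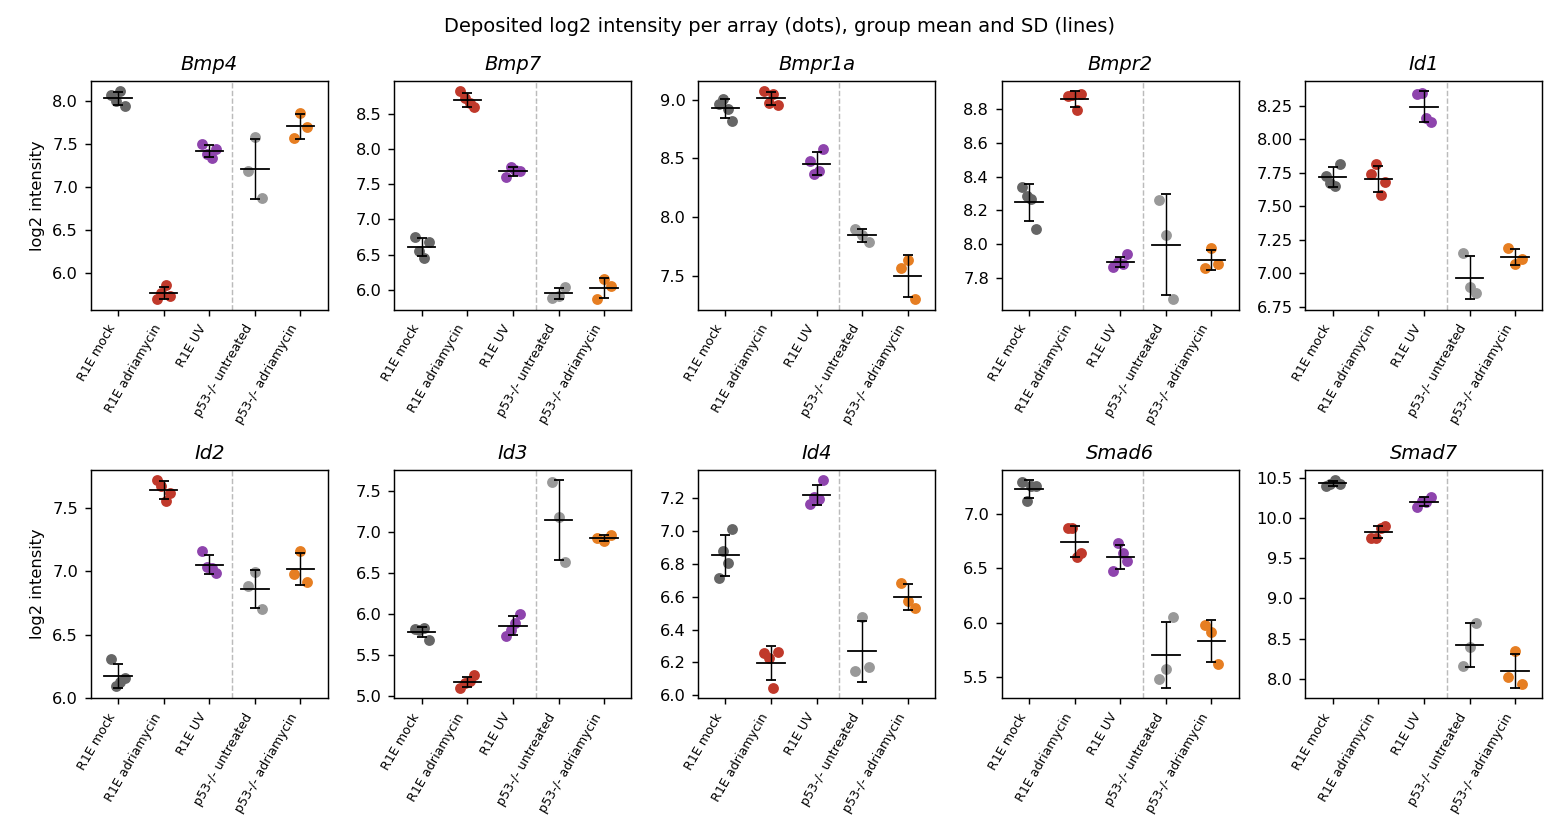
Deposited log2 intensity of the 10 members on each array (dots), with group mean and SD (black lines), for R1E mock, adriamycin and UV (n = 4 each) and p53-/- untreated and adriamycin (n = 3 each). The dashed line separates the cell sources, which were normalized separately. Bmp4 drops from a mean of 8.03 to 5.77 after adriamycin in R1E, while Bmp7 climbs from 6.61 to 8.70.

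Of the receptor genes, Bmpr2, the type II receptor of BMP ligands, rose from 8.25 ± 0.11 (SD, n = 4) in mock to 8.86 ± 0.04 after adriamycin. Its log2 change was 0.61 ± 0.05 SE (adjusted p = 7.82e-08), and the groups did not overlap. Bmpr1a, a type I receptor that mouse embryonic stem cells use for BMP4, read 8.82 to 9.004 in mock and 8.95 to 9.07 after adriamycin. These ranges overlap, and the change of 0.09 ± 0.06 did not pass the test (adjusted p = 0.264, interval -0.04 to 0.21).

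The Id genes encode the inhibitors of helix-loop-helix factors. Id2 read 6.31, 6.10, 6.13 and 6.16 in mock and 7.72, 7.67, 7.55 and 7.62 after adriamycin. All treated arrays lay above all mock arrays, with a log2 change of 1.47 ± 0.06 (adjusted p = 3.74e-12), rank 361 from the highest. Id1, often used as a readout of BMP signalling, read 7.72, 7.68, 7.65 and 7.82 in mock and 7.74, 7.81, 7.58 and 7.68 after adriamycin. The groups lay on top of each other, at a log2 change of -0.01 ± 0.07 (-0.15 to 0.13, adjusted p = 0.906). Id3 read 5.82, 5.81, 5.83 and 5.69 in mock and 5.10, 5.16, 5.18 and 5.26 after adriamycin, a change of -0.61 ± 0.06 (adjusted p = 2.55e-07). Id4 read 6.71, 6.88, 6.81 and 7.01 in mock and 6.26, 6.23, 6.05 and 6.26 after adriamycin, a change of -0.65 ± 0.07 (adjusted p = 3.94e-07). For both Id3 and Id4 every treated array lay below every mock array. Id3 in R1E was dim, below the median gene level of that set.

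Smad7, whose product blocks receptor signalling by both BMP and TGF-beta ligands, fell from 10.43 ± 0.03 (SD, n = 4) to 9.82 ± 0.07, a log2 change of -0.61 ± 0.05 SE (adjusted p = 2.72e-08). Smad6, whose product acts mainly on BMP signalling, read 7.29, 7.11, 7.26 and 7.25 in mock and 6.87, 6.87, 6.60 and 6.64 after adriamycin. The adriamycin arrays form pairs at 2 levels, both below the mock arrays, and the change was -0.48 ± 0.07 (adjusted p = 3.15e-05).

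Set beside the ligand, the falls among the target genes were small. The interval of the Bmp4 change ended at -2.15, while the lowest bound of any Id, Smad6 or Smad7 change was -0.80, for Id4. Id1 did not follow Bmp4 down within an interval that ends at -0.15, and Id2 moved against it. These genes began at different levels: mock means were 8.03 for Bmp4, 5.79 for Id3, 6.85 for Id4 and 10.43 for Smad7. After adriamycin the Bmp4 mean was 5.77, where array medians were 6.03 to 6.05. The lowest level these probe sets can read was not measured, so sizes of falls from dim and bright levels may not be comparable. The arrays measured bulk RNA, so fewer cells of a type and less RNA per cell cannot be told apart. All 10 embryonic stem cell markers averaged between 11.05 and 11.1 on mock arrays and between 10.35 and 10.46 after adriamycin, with 9 of 10 lower. The 10 fibroblast markers averaged between 5.431 and 5.53 in mock and between 5.482 and 5.606 after adriamycin, with 3 higher and 1 lower. The 4 neural ectoderm markers averaged between 6.304 and 6.454 in mock and between 5.854 and 6.022 after adriamycin, with 2 lower. Trophectoderm averages also lay lower (5.351 to 5.519 in mock, 5.1 to 5.247 treated), and those of primitive endoderm and mesoderm overlapped. The part of these shifts in the BMP gene changes was not tested.

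**Figure D2:**
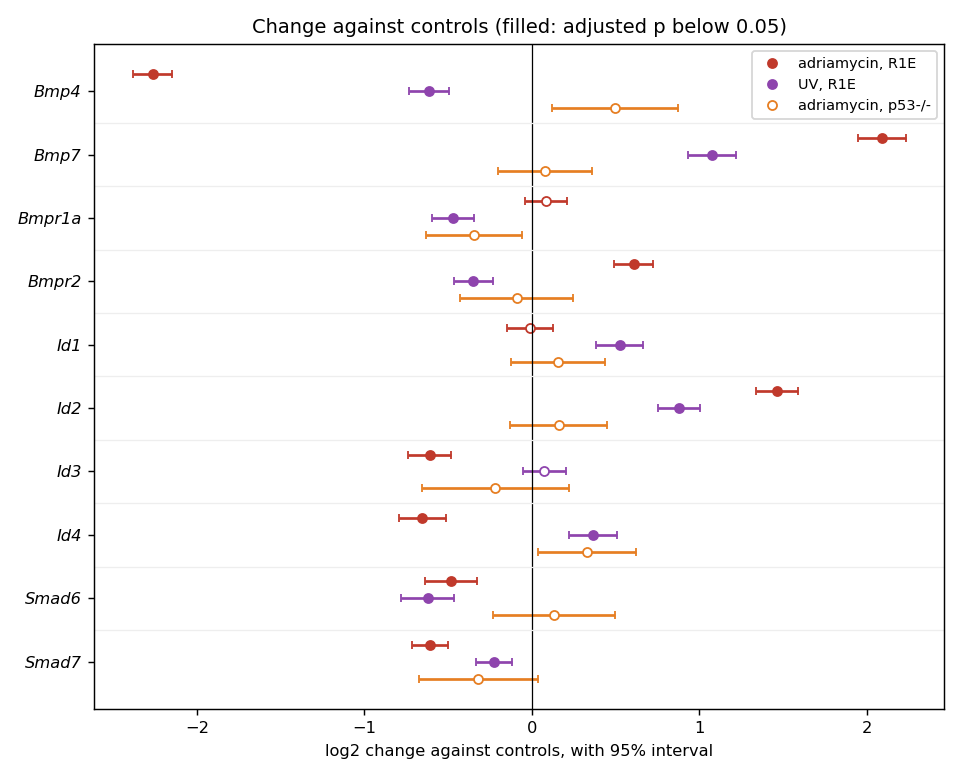
Log2 change of each member against its controls, with 95% intervals, for adriamycin in R1E (red), UV in R1E (purple) and adriamycin in p53-/- cells (orange). Filled points passed an adjusted p of 0.05. In R1E the Bmp4 fall of -2.26 stands apart from the Id3 and Id4 falls of -0.61 and -0.65, and no orange point is filled.

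The wider pathway, taken from fixed lists that include the members, showed changes in both directions after adriamycin in R1E. Over all genes 22.1% rose and 25.6% fell. Of 16 BMP ligand genes 4 rose and 2 fell, with a median of 0.07 against -0.02 for all genes. The falls were Bmp4 and Gdf3 (-0.66), a ligand gene active in pluripotent cells, and the rises after Bmp7 were small, led by Bmp8a at 0.31. With each array centred on its median, these counts became 1 and 5, and with quantile normalization 1 and 3. Of 12 receptor and co-receptor genes 5 rose and 3 fell (median 0.07). Eng, which encodes the co-receptor endoglin, rose 3.48-fold and Tgfbr3, the betaglycan gene, rose 1.99-fold, while Hjv (-0.48) and Rgma (-0.26), both of the repulsive guidance molecule co-receptor family, fell. Centring turned these counts to 3 and 5.

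Most signal transducers rose and inhibitors were mixed, where 22.1% of all genes rose and 25.6% fell. All 4 receptor-regulated and common SMAD genes were called after adriamycin: Smad5 rose 1.91-fold, Smad9 had a log2 change of 0.52 and Smad1 of 0.36, and Smad4, the common partner, of -0.23. Of 12 intracellular inhibitors 6 rose and 5 fell (median 0.09), with Ski, a SMAD co-repressor, at 0.64 and the phosphatase gene Ctdspl at 0.53, against Ctdsp2, a phosphatase gene of the same family, at -0.75 and Smad7. Of 15 measured secreted and membrane antagonists 4 rose and 4 fell (median 0.00), near the shares of all genes. These counts were 2 and 6 with centring and 2 and 4 with quantile normalization. Fstl3, a follistatin-like ligand trap, rose 1.87-fold and Twsg1, a chordin-binding modulator, 1.79-fold. The membrane pseudoreceptor gene Bambi had a log2 change of -0.24 and Bmper of -0.28. Of 17 BMP target genes 3 rose and 8 fell (median -0.13), including Tbx3, a pluripotency and patterning factor, at -0.90 and Dlx3 at 0.47. This list holds the members Id1, Id2, Id3, Id4, Smad6 and Smad7, so its counts in part repeat theirs. Id2 was among the rises, and Id3, Id4, Smad6 and Smad7 were among the falls. Among the E protein genes, partners of the Id proteins, Tcf4 fell by 0.74 on the log2 scale, Tcf3 stood at -0.16 (adjusted p = 0.0708) and Tcf12 at 0.06 (adjusted p = 0.498).

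The next comparison asked what UV did in R1E cells. Bmp4 and Bmp7 again parted, by less, and here none of the Id genes fell. Of the members 4 rose and 5 fell, where 22.6% of all genes rose and 21.2% fell, and 43.9% were called in all. Bmp7 alone changed at least 2-fold, as 1.87% of genes rose and 0.692% fell that much. Bmp4 read 7.4999, 7.39, 7.34 and 7.45 after UV, all below the lowest mock array, with a log2 change of -0.61 ± 0.06 SE (adjusted p = 1.33e-07). Bmp7 read 7.60, 7.75, 7.70 and 7.69, all above the highest mock array, and rose 2.11-fold (1.08 ± 0.07, adjusted p = 1.98e-09).

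Among the Id genes after UV, Id1 read 8.34, 8.34, 8.16 and 8.13 and rose 1.44-fold (0.52 ± 0.07, adjusted p = 5.36e-06). Id2 rose 1.84-fold, to 7.05 ± 0.07 (SD, n = 4) from 6.17 ± 0.09 (log2 change 0.88 ± 0.06 SE, adjusted p = 4.34e-09). Id4 rose 1.29-fold, to between 7.17 and 7.31 (0.37 ± 0.07, adjusted p = 0.000269). These 3 genes had every UV array above every mock array, as 40.7% of all genes had groups apart one way or the other. Id3, at 5.74 to 6.0005 against 5.69 to 5.83 in mock, overlapped and did not pass the test (0.07 ± 0.06, adjusted p = 0.363).

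The feedback and receptor genes fell after UV. Smad6 fell 1.54-fold, to 6.47, 6.74, 6.64 and 6.57 (log2 change -0.62 ± 0.07, adjusted p = 2.78e-06), and Smad7 fell 1.17-fold (-0.23 ± 0.05, adjusted p = 0.00147). Bmpr1a fell from 8.93 ± 0.08 (SD, n = 4) to 8.45 ± 0.10, and Bmpr2 from 8.25 ± 0.11 to 7.90 ± 0.03, at log2 changes of -0.47 and -0.35 (adjusted p = 5.4e-06 and 5.83e-05). So Smad6 and Smad7 were lower while Id1, Id2 and Id4 were higher in the same cells, although all 5 are known BMP targets.

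The length of genomic DNA a gene covers, its span in the RefSeq table, differs widely among these genes. Bmpr2 spans 114.0 kb and Bmpr1a 92.3 kb, whereas Id1 spans 1.16 kb, Id3 1.57 kb and Id2 2.29 kb. Of the 76 listed pathway genes with a value and a span, 12 were above 100 kb, and of these 6 fell and none rose after UV. Over all genes above 100 kb, 48.1% fell and 8.75% rose after UV, so the pathway's long genes had falls near the share of long genes in general. Of the 64 shorter pathway genes 11 fell and 24 rose, where 17.7% and 24.5% of all shorter genes did. With the limit at 80 kb, which takes in Bmpr1a, 8 of 15 pathway genes fell and none rose, against 48.2% and 9.28% of all genes above it. Bmp7, at 72.3 kb, rose and Bmp4, at 7.14 kb, fell, and both lie below the limits of 80 and 100 kb. The part of span in the changes of the ligand and receptor genes was not tested. The E protein genes Tcf4 (345.0 kb) and Tcf12 (268.0 kb) fell by 1.24 and 0.85 on the log2 scale, while Tcf3 (24.4 kb) was at 0.20.

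**Figure D3:**
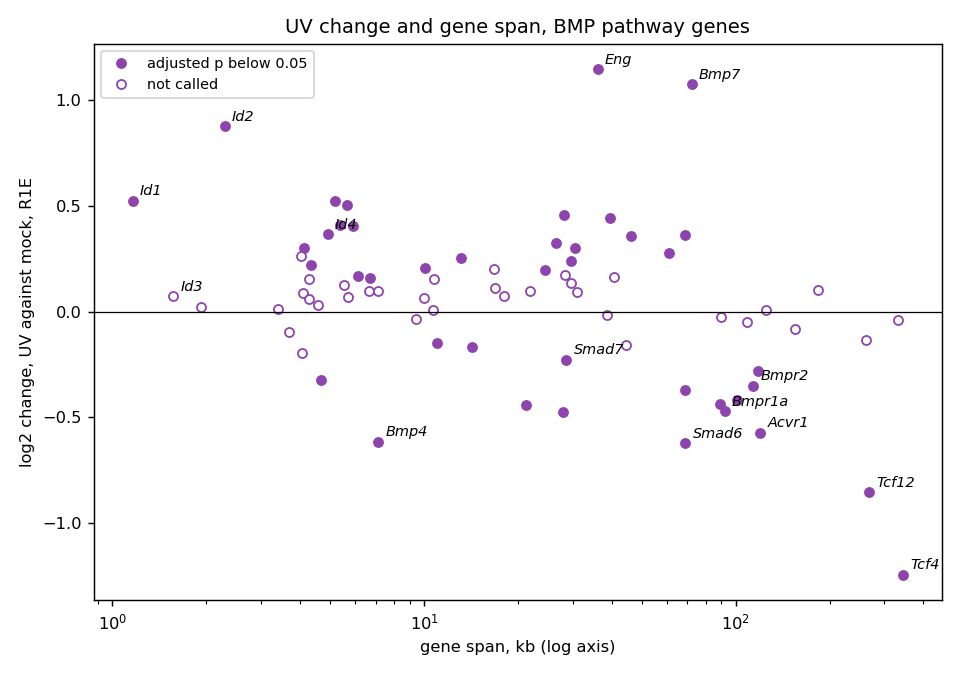
Log2 change after UV in R1E (vertical axis) against gene span in kb (horizontal log axis) for 76 BMP pathway genes. Filled points passed an adjusted p of 0.05. None of the 12 genes above 100 kb has a filled point above 0, Tcf4 lies lowest at -1.24, and Eng and Bmp7 lie highest.

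In the other lists after UV, 5 of 16 ligand genes rose and 2 fell, with Gdf3 at -0.32 beside Bmp4. Centring gave 2 and 2, and quantile normalization 1 and 2. Of 12 receptor and co-receptor genes 2 rose and 4 fell (median -0.10, all genes 0.03), where 22.6% of all genes rose and 21.2% fell. Eng rose 2.22-fold and Acvr1, another type I receptor gene, was at -0.57. Centring turned these counts to 2 and 6, and quantile normalization to 3 and 6. Smad5 and Smad9 had log2 changes of 0.44 and 0.36 and Smad4 of -0.37. Of 12 intracellular inhibitors 3 rose and 6 fell, with Tob1, an antiproliferative SMAD-binding factor, at 0.50 and Skil, a SMAD co-repressor, at -0.48. Antagonists had 3 of 15 higher and 1 lower, led by Twsg1 at 0.46. With centring the inhibitor counts were 2 and 6 and the antagonist counts 2 and 1. With quantile normalization they were 2 and 6, and 2 and 2. Of 17 target genes 7 rose and 3 fell after UV, where 22.6% and 21.2% of all genes did. The members Id1, Id2 and Id4 were among these rises, and Smad6 and Smad7 among the falls. After adriamycin 3 target genes rose and 8 fell, where the shares of all genes were 22.1% and 25.6%. These comparisons share the mock arrays. The embryonic stem cell markers moved after UV too, averaging between 10.8 and 10.87 against 11.05 to 11.1 in mock, with 6 of 10 lower and none higher. Of the 10 fibroblast markers 3 were higher, at averages from 5.497 to 5.631. The part of these shifts in the UV values was not tested.

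Adriamycin and UV arrays were therefore compared directly, without the mock arrays. Of the members 4 were higher and 5 lower after adriamycin than after UV, where 42.0% of all genes were called, 19.8% higher and 22.2% lower. Bmp4 was 3.14-fold lower (log2 difference -1.65 ± 0.06 SE, adjusted p = 5.29e-12), rank 7 from the lowest of 19935 genes. Members at least 2-fold apart were Bmp4 and Id4, lower, and Bmp7, higher, as were 0.281% and 1.07% of all genes in these directions. Id4 was 2.03-fold lower (-1.02 ± 0.07, adjusted p = 5.45e-09), Id3 1.61-fold lower (-0.68 ± 0.06, adjusted p = 1.57e-07) and Id1 1.45-fold lower (-0.54 ± 0.07, adjusted p = 5.46e-06). Thus 3 of the 4 Id genes lay on the same side as Bmp4 here, each by less, with Id4 at rank 50 and Id3 at rank 235 from the lowest.

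On the other side, Bmp7 was 2.02-fold higher after adriamycin than after UV, Bmpr2 1.95-fold, Id2 1.503-fold and Bmpr1a 1.47-fold (adjusted p from 1.16e-09 for Bmpr2 to 1.13e-06 for Bmpr1a). Smad7 was lower, at -0.38 ± 0.05. Smad6 was the exception to groups that did not overlap, which 38.3% of all genes showed between the treatments, with a difference of 0.14 ± 0.07 (interval -0.02 to 0.30, adjusted p = 0.146). Of the 17 BMP target genes 9 were lower after adriamycin than after UV and 1, Id2, was higher (median -0.20, all genes -0.04). Over all genes 22.2% were lower and 19.8% higher. The members Id1, Id3, Id4 and Smad7 were among the 9 lower target genes. Tbx3, at -0.74, was the lowest after Id4. Of the 10 embryonic stem cell markers 7 were also lower after adriamycin than after UV and none was higher (median -0.30), and their part in these differences was not tested.

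The same dose of adriamycin in p53-/- cells gave no called change in any of the 10 genes. In that comparison 0.0953% of all genes were called (limma, 19 genes), 0.0150% higher and 0.0803% lower, and changes of at least 2-fold were 0.00502% and 0.0301%. Of the members, 3 had an unadjusted p below 0.05, as did 11.6% of all genes. Bmp4 read 7.19, 7.58 and 6.88 untreated and 7.57, 7.86 and 7.70 with adriamycin. Its treated arrays overlapped the untreated ones and lay higher on average, with a log2 change of 0.49 ± 0.17 SE (interval 0.12 to 0.87, adjusted p = 0.287). Bmp7 read 5.89, 5.91 and 6.04 untreated and 5.87, 6.15 and 6.06 treated, a change of 0.08 ± 0.13 (adjusted p = 0.857). A Bmp4 fall or a Bmp7 rise of the size seen in R1E lies outside these intervals, of which that of Bmp7 ran from -0.20 to 0.36.

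Of the Id genes in p53-/- cells, Id2 read 6.88, 6.999 and 6.70 untreated and 6.98, 7.16 and 6.92 treated, a change of 0.16 ± 0.13 (interval -0.13 to 0.45). Id4 lay higher on all 3 treated arrays, at 6.53 to 6.68 against 6.15 to 6.48, but did not pass the test (0.33 ± 0.13, adjusted p = 0.374). Groups of 17.5% of all genes did not overlap here. Id1 was at 0.15 ± 0.13 and Id3 at -0.22 ± 0.20. Untreated Id3 arrays scattered from 6.64 to 7.61, wider than the change.

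Bmpr1a lay lower on all 3 treated p53-/- arrays, at 7.30 to 7.64 against 7.79 to 7.90 untreated (-0.34 ± 0.13, adjusted p = 0.338). Bmpr2 was at -0.09 ± 0.15, Smad6 at 0.13 ± 0.17 and Smad7 at -0.32 ± 0.16, each with overlapping groups. No gene of the pathway lists was called. Simulated arrays of this design, with 200 changed genes, let the fit find 71.7% of changes of 2-fold but 20.3% of those of 1.5-fold. The real arrays gave 19 called genes, so the shares found there may be lower. A change the size of those of Id3, Id4, Smad6 or Smad7 in R1E would often be missed. Untreated replicate 3 correlated least with its group (mean r = 0.98474), and without it 442 genes were called in place of 19, none of them a member. Without any other single p53-/- array from 0 to 6 genes were called, again no member. The 7 primitive endoderm markers averaged between 7.48 and 7.595 on untreated and between 7.094 and 7.308 on treated p53-/- arrays. Neural ectoderm markers went the other way, between 6.103 and 6.424 untreated and between 6.505 and 6.598 treated. Embryonic stem cell markers averaged 10.08 to 10.22 untreated and 10.01 to 10.06 treated. Fibroblast, trophectoderm and mesoderm averages overlapped between the groups. No marker of these lists was called, and their part in the member values was not tested.

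**Figure D4:**
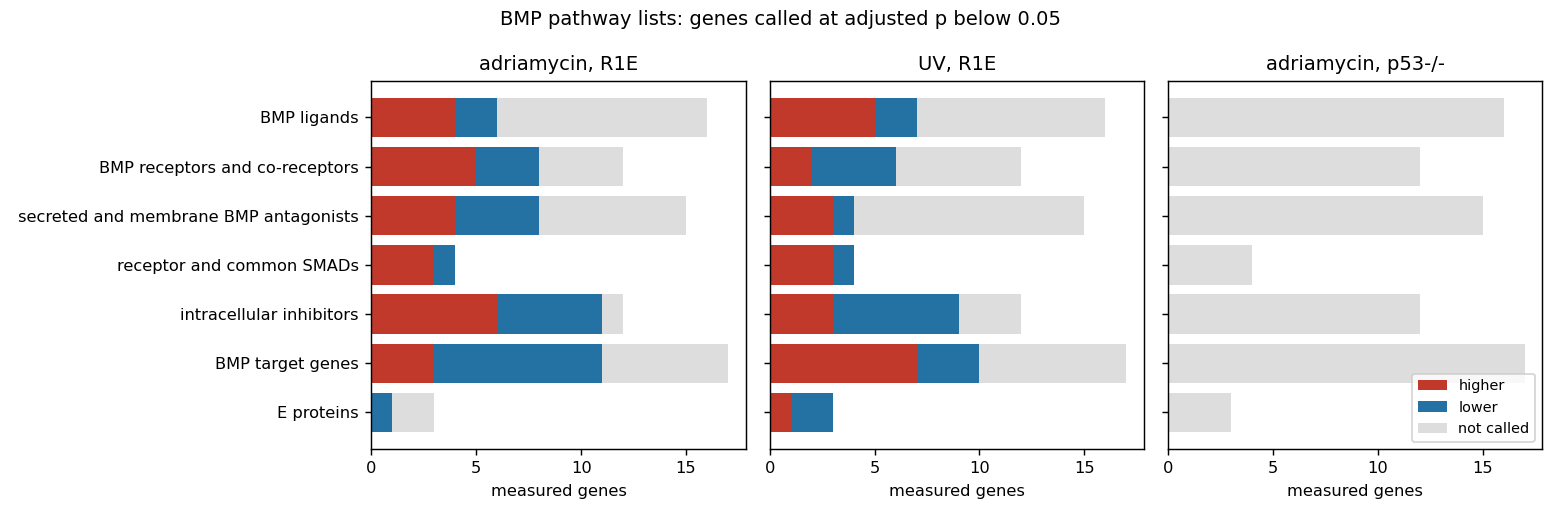
Number of measured genes in each BMP pathway list that were higher (red), lower (blue) or not called (grey) at an adjusted p of 0.05, for adriamycin in R1E, UV in R1E and adriamycin in p53-/- cells. The lists include the members. Target genes had 8 lower after adriamycin and 7 higher after UV in R1E, where 25.6% and 22.6% of all genes were. No list had a called gene in p53-/- cells.

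The difference between the adriamycin effects in the 2 cell sources was tested itself, with each source's own spread. It was called for 7 members, 4 higher and 3 lower in R1E, where 21.7% of all genes were called, 10.4% higher and 11.4% lower. Differences of at least 2-fold, found in 3.37% of genes upward and 1.76% downward, were those of Bmp7 and Id2 and that of Bmp4. Bmp4 had a difference of -2.76 ± 0.18 SE (interval -3.15 to -2.37, adjusted p = 4.72e-08), rank 3 from the lowest of 19935 genes. Bmp7 had 2.01 ± 0.14 (adjusted p = 9.94e-09), Id2 1.31 ± 0.15 (adjusted p = 4.22e-06) and Bmpr2 0.70 ± 0.16 (adjusted p = 0.00554). Id4 had -0.98 ± 0.15 (adjusted p = 8.84e-05). In simulated arrays of this test 10.4% of calls were false.

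Calls nearer the threshold did not hold under every alternative. Smad6 had a difference of -0.62 ± 0.18 (adjusted p = 0.022), which was not called without untreated p53-/- replicate 1 or 2 or adriamycin p53-/- replicate 1 or 2 (adjusted p from 0.084 to 0.1). Bmpr1a, at 0.43 ± 0.14 (adjusted p = 0.0409), lost its call with median centring (adjusted p = 0.055), with a prior that was both intensity-trended and robust (adjusted p = 0.0526) and without R1E mock replicate 4, R1E adriamycin replicate 1 or 3, untreated p53-/- replicate 1 or 2, or adriamycin p53-/- replicate 1 or 3. Id1 (-0.17 ± 0.15), Id3 (-0.39 ± 0.21) and Smad7 (-0.29 ± 0.17) were not called, although Id3 was without untreated p53-/- replicate 1 (adjusted p = 0.025). The genotype cannot be told apart here from the cell line, the array set or the software that made the values.

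**Figure D5:**
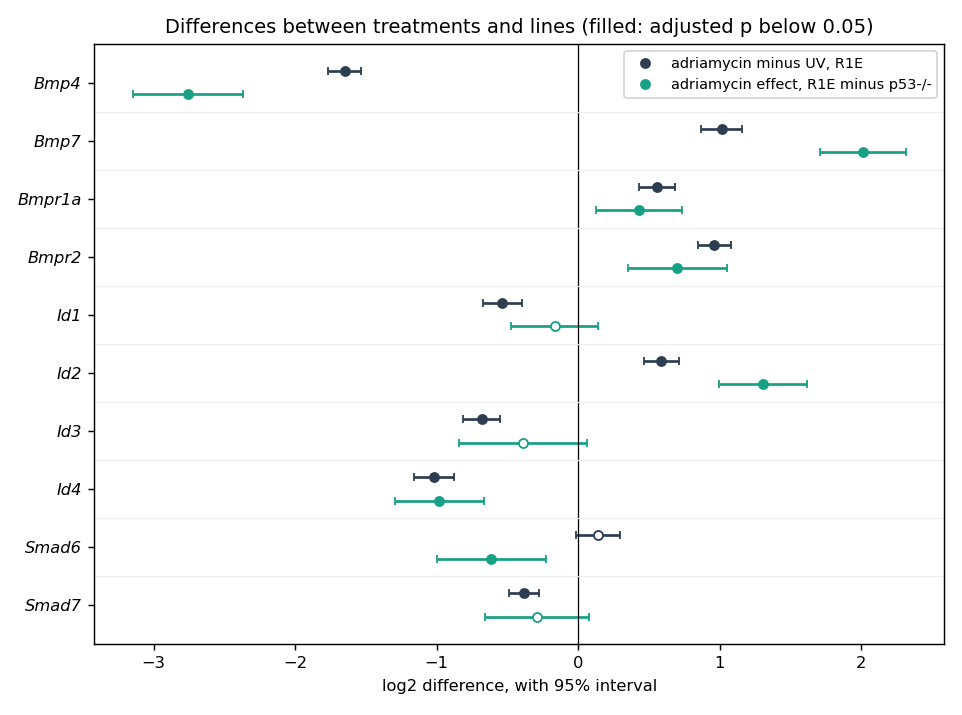
Log2 difference of each member between adriamycin and UV in R1E (dark) and between the adriamycin effects in R1E and p53-/- cells (green), with 95% intervals. Filled points passed an adjusted p of 0.05. Bmp4 lies at -1.65 and -2.76, and Id1, Id3 and Smad7 are not filled in green.

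Genes whose 3 log2 changes (adriamycin and UV in R1E, adriamycin in p53-/-) lay nearest to those of a member were named by Euclidean distance over these 3 values. Clone, predicted, olfactory, vomeronasal, histone and small RNA names and the other members were left out, so nearer genes may exist among them. Nearest to Bmp4 were Mras (distance 0.411), Ddx58 (0.438) and Eomes (0.44), the last with changes of -1.87, -0.72 and 0.33. Nearest to Id2 were Cnbd2 (0.0439), Wbp2nl (0.0763) and Arntl2 (0.0779), nearest to Id1 were Tmem222 (0.0645), Chrnb2 (0.0783) and Chpf (0.0841), and nearest to Id3 were Nolc1 (0.0628), Zscan18 (0.0711) and Trnau1ap (0.0732). The neighbours of Bmp4 were farther off than those of the other 3 genes. Bmp4 ranked 9 from the lowest of 19935 genes for adriamycin in R1E, where genes are sparse. The larger distances therefore add nothing further about Bmp4.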

How the data were processed

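The deposited table held log2 intensities of 28853 probe sets, made by the authors with Affymetrix Expression Console 1.1 for 12 R1E arrays and with RMA in Partek 6.4 for 6 p53-/- arrays, per the submitters' processing notes. The algorithm run in Expression Console and the genome build are not given in the sources used here. Of 28815 probe sets with values on all 18 arrays, 21780 had 1 gene symbol, 1605 several and 5430 none. Entrez IDs of 21689 were in the RefSeq table (GRCm38.p6), and 0 symbols changed. Per gene the probe set with the highest mean over 18 arrays was kept, leaving 19935 genes.

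Changes were fitted in limma 3.58.1 (R 4.3.3) with lmFit and eBayes, 1 fit over the R1E arrays and 1 over the p53-/- arrays, with no filter or further normalization. The difference of effects combined both fits' standard errors, with Welch-Satterthwaite degrees of freedom. p-values were Benjamini-Hochberg adjusted over all genes and called below 0.05. The number of arrays limits the precision. Scripts were tested on simulated arrays (3 simulations, 200 changed genes of 19935).

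The members and lists were chosen with earlier results of these data known. The rule named every member and up to 2 called rises and 2 called falls per list and comparison. It also named the 3 genes nearest to Bmp4, Id1, Id2 and Id3 after the exclusions given above. Smad1, Tcf3 and Tcf12 were named outside it where a list of at most 4 genes was given whole. Promoter windows were found for 7 members. The motifs and the span limits of 100 and 80 kb were also chosen with results known. The alternatives covered normalization, dim genes, probe choice, prior, arrays fitted, spread, a 2-fold limit, leaving out single arrays and a replicate block. Probe choice could not move the members, which had 1 probe set each. Same-numbered arrays did not deviate together throughout, so the numbers were not taken as pairs.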

Additional observations from a re-analysis of the deposited data

Results flagged for a closer look

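The adriamycin effect differed between R1E and p53-/- cells, by the test of the difference itself, for 7 members, where 21.7% of all genes were called: Bmp4 (log2 difference -2.76), Bmp7 (2.01), Bmpr1a (0.43), Bmpr2 (0.70), Id2 (1.31), Id4 (-0.98) and Smad6 (-0.62). For 5 of them the changes had opposite signs in R1E and p53-/- cells: Bmp4 (-2.26 against 0.49), Id4 (-0.65 against 0.33), Smad6 (-0.48 against 0.13), Bmpr2 (0.61 against -0.09) and Bmpr1a (0.09 against -0.34). None of these p53-/- changes, nor that of Bmpr1a in R1E, passed its own test. The Bmpr1a change in R1E turned to -0.039 with median centring. The difference calls of Bmpr1a and Smad6 did not hold under every alternative, as given above.

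In 30 groups of 4 arrays tested, 3 had 1 array apart from the other three by Dixon's criterion, where chance gives about 1 in 20 groups. These were Bmpr2 on R1E adriamycin replicate 3 (8.79), Id4 on R1E adriamycin replicate 3 (6.05) and Id3 on R1E mock replicate 4 (5.69). Each lies beyond its group by little against the change of that gene, and leaving out the array did not end the call of any of these genes for adriamycin in R1E.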

How the results depend on the processing

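Of 776 values of single members under the alternatives, 753 kept their direction and their side of the threshold, 13 lost and 1 gained a call, all in the difference of effects, and 9 changed sign. Each member had 1 probe set, so averaging probe sets could not move its value. Leaving out dim genes, the other prior, the replicate block, the fit of only the groups compared and the shared spread also left log2 changes as they were. Under these settings the direction could not change. No value called in its comparison changed sign. The sign changes were Bmpr1a for adriamycin in R1E with median centring (-0.039), Id1 there without R1E mock replicate 4 (0.022) or adriamycin replicate 3 (0.029), Id3 after UV with quantile normalization (-0.014) and with centring (-0.0041), and in p53-/- cells Bmp7 with quantile normalization (-0.0023) and with centring (-0.013), and Bmpr2 (0.040) and Id3 (0.014) without untreated replicate 1. With 1 array left out at a time, Id1 for adriamycin in R1E ranged from -0.048 to 0.029, and in p53-/- cells Bmpr2 from -0.25 to 0.04 and Id3 from -0.47 to 0.014. Counting only changes of at least 2-fold left 1071 genes for adriamycin in R1E, 510 for UV, 269 for adriamycin against UV, 7 in p53-/- cells and, for the effect difference, 1021, with 3, 1, 3, 0 and 3 members. In p53-/- cells 5 genes were called with the replicate block, and from 0 to 442 with 1 array left out. The replicate block changed no call of a member. Same-numbered arrays correlated in their deviations from the group mean between -0.142 and 0.191. Centring arrays on their medians moved every adriamycin change in R1E by -0.125, and the share of calls that were higher became 25.4% from 46.3%. For UV these were 35.3% and 51.6%, for adriamycin against UV 34.7% and 47.2%, and for p53-/- cells 4.17% and 15.8%. Dim genes left out removed Id3 from the R1E fit. The cause of these shifts was not tested.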
